A study of Mus musculus with 6 samples.

Results

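The AP-1 transcription factors and 3 further immediate early genes were examined in mouse skin: the Fos family (Fos, Fosb, Fosl1, Fosl2), the Jun family (Jun, Junb, Jund), and Atf3, Egr1 and Dusp1. They were taken by name, as every probe set whose only annotated symbol is one of these 10 genes, out of 18193 genes with a symbol of their own. This gave 14 of the 45101 probe sets of the deposited table, with 2 probe sets each for Fosl1, Fosl2, Jun and Jund. Total RNA had been extracted from skin with TRIzol and hybridised to single-colour arrays, 1 array per sample, and the values are linear MAS5 signals scaled per array. The 3 wild-type samples are labelled WT and C57BL/6. The 3 knock-in samples are labelled with the genotype KA and the source name KAB6, also on C57BL/6. The labels do not name the changed gene, the promoter that drives it, a treatment, the age, the sex or the body site. Nor do they tie samples to different mice, so a p-value here measures the spread among these arrays alone, which may be technical.

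AP-1 is a dimer of basic leucine zipper proteins. A Fos protein needs a Jun partner to bind DNA, whereas Jun proteins can also pair with each other or with ATF proteins. Immediate early genes are transcribed within minutes of a growth factor, cytokine or injury signal without new protein synthesis, and in skin AP-1 takes part in keratinocyte proliferation and differentiation, wound repair and inflammation. Dusp1, a phosphatase, switches off the MAP kinases that induce several of these genes.

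The promoters of the members that were higher in knock-in are shown because such genes are commonly read through the cAMP response element, a site for CREB and ATF proteins. RefSeq windows of build GRCm38.p6 were matched by symbol for 8 of the 10 members, and Fosl1 and Egr1 are named only. Each sequence is the 250 bases before the annotated start, 5′ to 3′ on the gene's strand, with capitals for TGACG or TGACGTCA on either strand and for TATAAA. Fos lies at chr12:85473640-85473889 on the plus strand, Dusp1 at chr17:26508473-26508722 and Junb at chr8:84978749-84978998, both on the minus strand.
Fos: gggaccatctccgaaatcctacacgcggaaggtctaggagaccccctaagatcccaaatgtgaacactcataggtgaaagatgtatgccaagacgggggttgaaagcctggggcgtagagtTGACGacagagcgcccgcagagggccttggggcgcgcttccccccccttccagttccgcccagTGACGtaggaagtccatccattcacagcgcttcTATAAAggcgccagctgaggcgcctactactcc
Dusp1: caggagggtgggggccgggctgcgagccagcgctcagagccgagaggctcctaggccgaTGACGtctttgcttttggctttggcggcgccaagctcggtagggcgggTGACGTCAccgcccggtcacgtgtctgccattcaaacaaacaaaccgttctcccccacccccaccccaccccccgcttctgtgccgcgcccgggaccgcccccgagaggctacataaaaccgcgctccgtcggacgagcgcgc
Junb: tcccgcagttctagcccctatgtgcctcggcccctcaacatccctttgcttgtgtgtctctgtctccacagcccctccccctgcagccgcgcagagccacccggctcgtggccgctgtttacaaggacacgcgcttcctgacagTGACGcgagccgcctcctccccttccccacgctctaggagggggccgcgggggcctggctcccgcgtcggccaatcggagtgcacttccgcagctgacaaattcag

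All 3 windows held the core TGACG. Counted from the start, it began at positions -129 and -66 in Fos, -191 and -143 in Dusp1, and -106 in Junb. Only Dusp1 among the 8 members held the full TGACGTCA, of which the core at -143 is a part. Of all 32851 windows of this length, 17.8% held TGACG and 1.55% held TGACGTCA on either strand. The core was also present in Fosb and Atf3, so 5 of 8 members had it, and it was absent from the Jun, Jund and Fosl2 windows. TATAAA stood in Fos alone, against 12.4% of all windows. The EGR site GCGNGGGCG was found in Fosb and Fosl2 (4.70% of all windows), and the AP-1 site TGANTCA (6.75%) and the CArG box (1.47%), a site for SRF, in 0 of the 8. These letters describe the windows only. The windows of all genes were not matched to those of the members in base content, and enrichment was not tested. Sites beyond the 250 bases and near spellings, such as tgacatca in the Jun window, were not counted. A 0 here therefore does not mean that a gene lacks such a site.

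The comparison asks which of these genes differ between wild-type and knock-in skin. The test was run by limma on log2(signal + 16) for all 45037 probe sets that are not controls, and a probe set was called at a Benjamini-Hochberg adjusted p under 0.05. Differences are knock-in minus wild-type. Of the 14 probe sets, 5 were called higher and 1 lower, against 6.01% higher and 7.81% lower of all probe sets tested. Among the 22518 probe sets with a mean above the median, 10.3% were higher and 12.9% lower, 23.2% in all. By gene, Fos, Fosl1, Junb and Dusp1 rose, Jund fell, and 5 genes did not pass (among all named genes, with 1 probe set each, 8.45% rose and 9.0% fell, 17.5% in all). With the brightest probe set for each gene, the median difference of the 10 members was 0.47 on the log2 scale, beside -0.021 for all named genes. The members were chosen with earlier results of these data known, so the shares and medians here do not test them as a set. The groups' ranges were separate for 9 of the 14 probe sets, where 32.7% of all probe sets were separate. No filter on low values was applied, so every member was tested, and 10 of the 14 had a mean above the median of all probe sets. Over all probe sets the share called was 13.8%. It was 7.04% without wild-type replicate 3, 8.19% without knock-in replicate 1 and 7.62% without knock-in replicate 3.

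**Figure D1:**
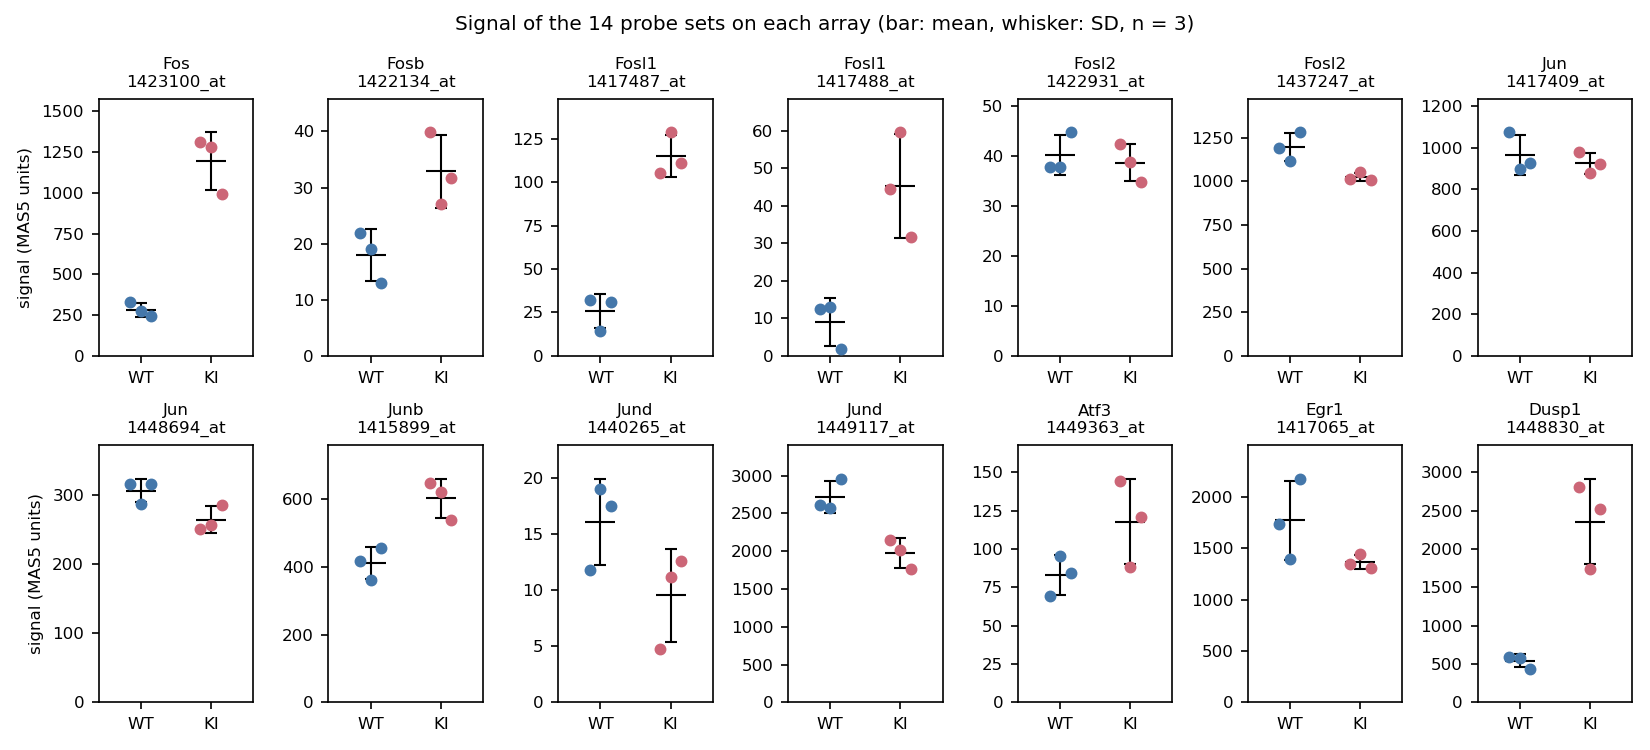
Signal (linear MAS5 units, axes from 0) of each of the 14 probe sets on the 3 wild-type (WT, blue) and 3 knock-in (KI, red) arrays, with the mean and SD of each group. Fos, Dusp1 and both Fosl1 probe sets are separate between the groups, while both groups of Jun 1417409_at lie between 878 and 1074.

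Several measures of the whole series move with genotype on every array. Xist, which coats the inactive X chromosome, averaged 29.7 ± 2.44 on wild-type arrays and 3729.7 ± 282 on knock-in arrays (SD, n = 3), and the Y-linked Eif2s3y 687 ± 42.6 and 5.04 ± 0.544, so sex and genotype cannot be told apart in any result here. The 5′ control for 18S ribosomal RNA ranged from 1314 to 2286 in wild-type and from 166 to 766 in knock-in. Its middle control ranged from 1009 to 1706 and from 410 to 919, and its 3′ control overlapped (260 to 483 and 220 to 306). Whether RNA or labelling quality differed between the groups was not tested. The defining keratinocyte markers were strongly detected in both groups, with a summed signal of 33846 to 38377 in wild-type and 40279.5 to 51044.5 in knock-in, and 3 of 8 were called higher. Summed neutrophil markers ranged from 69.0 to 105 and from 790.0 to 1460.2 (5 of 6 called higher), with Cxcr2 at 2.85 ± 1.17 in wild-type. Mast cell markers ranged from 934 to 1351 and from 2366 to 2954 (3 of 5 higher), and endothelial markers from 394 to 547 and from 1121 to 1263 (3 of 5 higher). Hair follicle markers ranged from 31873 to 41194 and from 10049 to 18573 (8 of 8 lower), and T cell markers from 214 to 252 and from 87.0 to 136 (2 of 5 lower). Melanocyte markers ranged from 1903 to 4273 and from 698 to 1352 (4 of 5 lower), and muscle markers from 34236 to 51674 and from 19072 to 30447 (4 of 6 lower). Macrophage markers (5347 to 7823 and 7766 to 12266, 2 of 7 higher), fibroblast markers (25580 to 32738 and 25819 to 29167, 1 of 5 higher and 1 lower), adipocyte markers (1715 to 3468 and 2064 to 3246, 1 of 3 higher) and erythroid markers (132 to 153 and 129 to 149, 1 of 3 higher and 1 lower) overlapped between the groups. The part of these cell types in the results below was not tested. In bulk skin, fewer cells of a type and less RNA per cell cannot be told apart.

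Fos, the founding member of its family and a classic early response gene, was about 4 times as bright in knock-in. Its probe set 1423100_at read 329, 277 and 245 on the wild-type arrays and 1313, 1278 and 994 on the knock-in arrays. The lowest knock-in array lay far above the highest wild-type array. The group means were 284 ± 42.7 and 1195 ± 175 (SD, n = 3), a ratio of 4.21 and a log2 difference of 2.01 ± 0.14 (SE, limma adjusted p = 1.12e-04). The call held in all 16 alternatives, with differences from 1.85 to 2.15.

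Fosl1, which encodes FRA-1, a Fos protein without the strong activation domain of Fos and a marker of activated or migrating keratinocytes, was dim in wild-type and rose on both of its probe sets. Probe set 1417487_at gave 32.0, 14.4 and 30.9 in wild-type and 105, 129 and 111 in knock-in. Probe set 1417488_at gave 12.6, 12.9 and 1.78, and 44.6, 59.6 and 31.7. Both were separate between the groups, and all wild-type values were below the median signal of their array, which was between 37.5 and 45.7 over the 6 arrays. The log2 differences were 1.67 ± 0.21 and 1.30 ± 0.26 (limma adjusted p = 0.00171 and 0.0127). At such low signals the offset of 16 sets much of the size: the differences were 2.19 and 2.47 with an offset of 1, and 1.00 and 0.58 with 64, all called.

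Fosb, a partner of Jun proteins with a truncated form known from the brain, was dim throughout. Its signals were 21.9, 19.0 and 13.0 in wild-type and 39.8, 27.1 and 31.7 in knock-in, all 6 below the median of their array. The ranges were separate, but the log2 difference of 0.53 ± 0.19 did not pass (95% interval 0.10 to 0.95, limma adjusted p = 0.104, from 0.0475 with median centring to 0.288 over 14 alternatives). It was 0.85 with an offset of 1 and 0.24 with 64.

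Fosl2, which encodes FRA-2, was bright on 1437247_at with 1191, 1117 and 1280.2 in wild-type and 1013, 1051 and 1010.5 in knock-in. Every knock-in array was below every wild-type array. The log2 difference was small at -0.22 ± 0.083 and did not pass (95% interval -0.41 to -0.029, limma adjusted p = 0.127). The second probe set, 1422931_at, was dim and overlapped, with 37.8 to 44.7 in wild-type and 34.8 to 42.3 in knock-in. Its difference of -0.038 (95% interval -0.40 to 0.32) changed sign with median centring (0.094), with quantile normalization (0.087) and without replicate 3 of wild-type (0.020) or of knock-in (0.014).

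The Jun family, the obligate partners of the Fos proteins, did not follow Fos in size. Junb, whose loss in epidermis is known to cause inflammation in mice, gave 416, 360.5 and 455 in wild-type and 648, 620.1 and 538 in knock-in (1415899_at). The ranges were separate and the mean rose by 46.6%. The log2 difference was 0.54 ± 0.11 (limma adjusted p = 0.0170), and it passed in 13 of 16 alternatives (adjusted p 0.00480 to 0.0680). Leaving out knock-in replicate 1 gave an adjusted p of 0.0680 and leaving out knock-in replicate 2 gave 0.0546 (limma).

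Jun itself, the activating partner that also drives its own promoter, was bright and did not pass on either probe set. Probe set 1417409_at gave 1074, 897 and 925 in wild-type and 978, 878 and 921 in knock-in, and the groups overlapped. Its difference of -0.056 ± 0.095 had a 95% interval of -0.27 to 0.16, and it was 0.076 with median centring and 0.022 without wild-type replicate 1. Probe set 1448694_at gave 317, 287 and 317, and 251, 258 and 287, with separate ranges and a difference of -0.20 ± 0.095 (95% interval -0.42 to 0.017, limma adjusted p = 0.215). Both intervals lie below the difference of Fos.

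Jund, the constitutive Jun protein of resting cells, was lower in knock-in. Its bright probe set 1449117_at gave 2608, 2574 and 2957 in wild-type and 2152, 2020.1 and 1765 in knock-in. The ranges were separate, and the mean signal fell by 27.0%. The log2 difference was -0.45 ± 0.10 (limma adjusted p = 0.0233). It passed in 10 of 16 alternatives (adjusted p 0.00984 to 0.0919). Leaving out wild-type replicate 3 gave 0.0919, knock-in replicate 2 gave 0.0568 and knock-in replicate 3 gave 0.0858. Median centring gave 0.0613 (difference -0.32) and the fit without the variance trend 0.0593. The dim probe set 1440265_at gave 11.7 to 19.0 and 4.77 to 12.6, overlapped and did not pass (-0.34 ± 0.18).

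**Figure D2:**
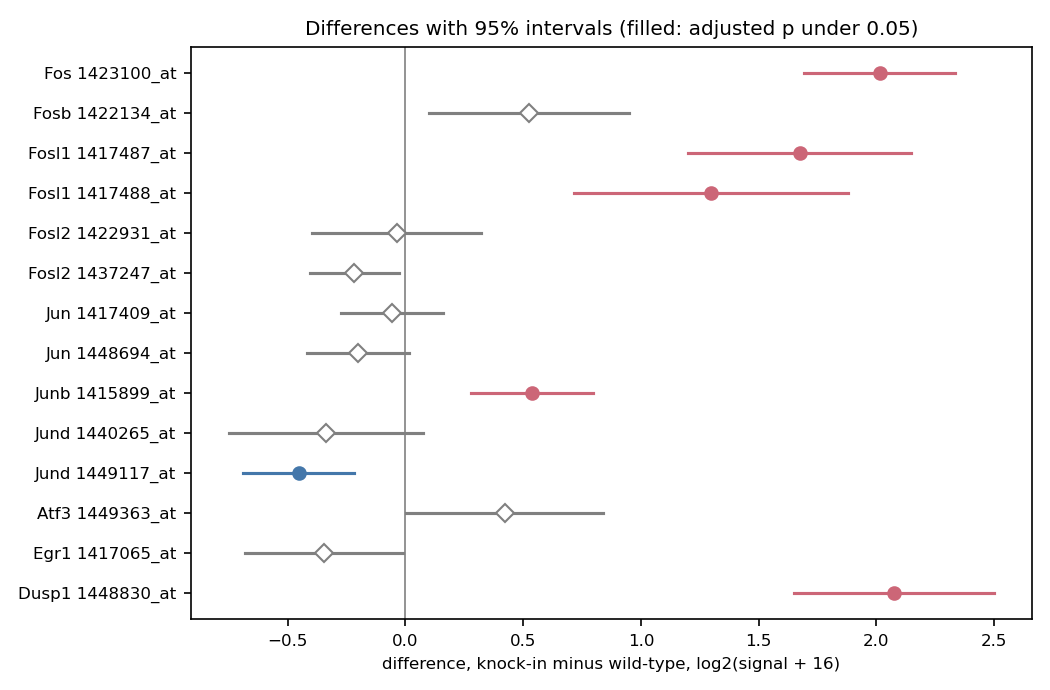
Difference between knock-in and wild-type on the log2(signal + 16) scale for each probe set, with its 95% interval from limma (filled circles: called, open diamonds: not called). Fos (2.01) and Dusp1 (2.07) stand at the right, Junb (0.54) is nearer to 0, and the bright Jund probe set (-0.45) is the only called value below 0.

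The members outside the Fos and Jun families did not share a direction. Dusp1, the MAP kinase phosphatase that glucocorticoids and stress also induce, gave 595, 586 and 442 in wild-type and 2813, 1736 and 2525 in knock-in (1448830_at). The lowest knock-in value was well above the highest wild-type value. Means were 541 ± 85.6 and 2358 ± 558 (SD, n = 3), a ratio of 4.36 and a log2 difference of 2.07 ± 0.19 (limma adjusted p = 4.00e-04). The call held in all 16 alternatives, with differences from 1.93 to 2.28.

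Atf3, a stress-induced member of the ATF family that can pair with Jun proteins, gave 69.5, 95.4 and 84.0 in wild-type and 144, 88.5 and 121 in knock-in (1449363_at). The groups overlapped through knock-in replicate 2, which lay below wild-type replicate 2. The log2 difference of 0.42 ± 0.18 did not pass (95% interval 0.0038 to 0.84, limma adjusted p = 0.177), nor did it in any of the 16 alternatives.

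Egr1, a zinc finger factor induced by SRF together with Fos in many cells, was bright and overlapped between the groups. Probe set 1417065_at gave 1736, 1398 and 2172 in wild-type and 1345, 1445 and 1310.3 in knock-in. Wild-type arrays spread widely (SD 21.9% of the mean) and knock-in arrays little (5.10%). The difference was -0.35 ± 0.15 (95% interval -0.68 to -0.010, limma adjusted p = 0.169). Without wild-type replicate 2 it was -0.50 and passed (limma adjusted p = 0.0392). The 16 alternatives gave adjusted p values of 0.0392 to 0.416.

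Fos and Egr1 were set against each other within each array, a comparison chosen after their values were seen. The log2 ratio of Fos to Egr1 was higher in knock-in by 2.36, and every knock-in array exceeded every wild-type array (two-sided exact permutation p = 0.1, the smallest that 3 against 3 arrays allow). The ratio of Dusp1 to Egr1 changed by 2.42 and that of Fos to Jun by 2.07, with the same separation and the same exact permutation p = 0.1 (not adjusted over the 3 ratios, none of which can pass 0.05). Such a ratio shows unequal change between 2 probe sets and says nothing of which gene has more transcript.

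Among the wild-type arrays the members did not deviate together. On wild-type replicate 3, Fos, Fosb, Dusp1 and Fosl1 1417488_at had their lowest wild-type signals. On the same array Egr1, Junb, both Fosl2 probe sets, Jun 1448694_at and the bright Jund probe set had their highest. In knock-in, replicate 3 held the lowest signals of Fos, Fosl1 1417488_at, both Fosl2 probe sets, Junb, Egr1 and the bright Jund probe set. Knock-in replicate 2 held the lowest of Dusp1, Atf3, Fosb and Jun 1417409_at.

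Other immediate early genes were split in a similar way. Of 39 measured genes of this list, 14 rose, 4 fell and 21 did not pass, with a median difference of 0.28 (8.45% and 9.0% of all named genes rose and fell, with a median of -0.021). The list and the 3 below were chosen with earlier results of these data known. Ptgs2, which makes prostaglandins, went from 11.5 ± 0.570 to 408 ± 17.9 (SD, n = 3), a difference of 3.95 ± 0.12 (limma adjusted p = 1.13e-06). Ccn1, a matrix-bound growth factor, rose from 172 ± 15.5 to 595 ± 15.4 (1.70 ± 0.094), and Ier3, a survival gene induced by NF-kB, from 813 ± 38.5 to 1625 ± 122 (0.98 ± 0.088).

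The NR4A orphan nuclear receptors, which are induced by cAMP and calcium signals, rose in all 3 members on the probe set with the highest mean. Nr4a1 gave 163, 218 and 187 in wild-type and 543, 568 and 453 in knock-in (1.39 ± 0.13). Nr4a2 (1455034_at) went from 39.4 ± 5.79 to 154 ± 34.9 (1.61 ± 0.17), and Nr4a3 from 34.97 ± 4.03 to 128 ± 19.9 (SD, n = 3; 1.49 ± 0.16). Limma adjusted p lay between 4.75e-04 and 9.48e-04, and with an offset of 64 the differences of Nr4a2 and Nr4a3 were 1.07 and 0.95. Other probe sets gave smaller values. Of the 6 probe sets of Nr4a2, 3 were called, and the other called differences were 0.76 (1450750_a_at) and 0.61 (1447863_s_at, limma adjusted p = 0.0318). The latter passed in 9 of 15 alternatives, with adjusted p values of 0.0128 to 0.109, and was lost on leaving out any array except wild-type replicate 1. The other 2 probe sets of Nr4a3 were dim and did not pass (0.019 and 0.014).

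The EGR genes besides Egr1 are zinc finger factors of the same family. Egr2 and Egr3, named after their values were seen, fell from 746 ± 44.6 to 413 ± 72.8 (-0.84 ± 0.13) and from 1671 ± 167 to 1027 ± 75.9 (-0.69 ± 0.10), with limma adjusted p of 0.00459 and 0.00368 and separate ranges. Egr4 was dim and did not pass (0.43 ± 0.25), nor did a second, dim probe set of Egr3 (0.19 ± 0.22). Egr2 and Egr3 held their calls in all 16 alternatives. The hair follicle markers given above were lower on the same arrays, and their part was not tested.

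**Figure D3:**
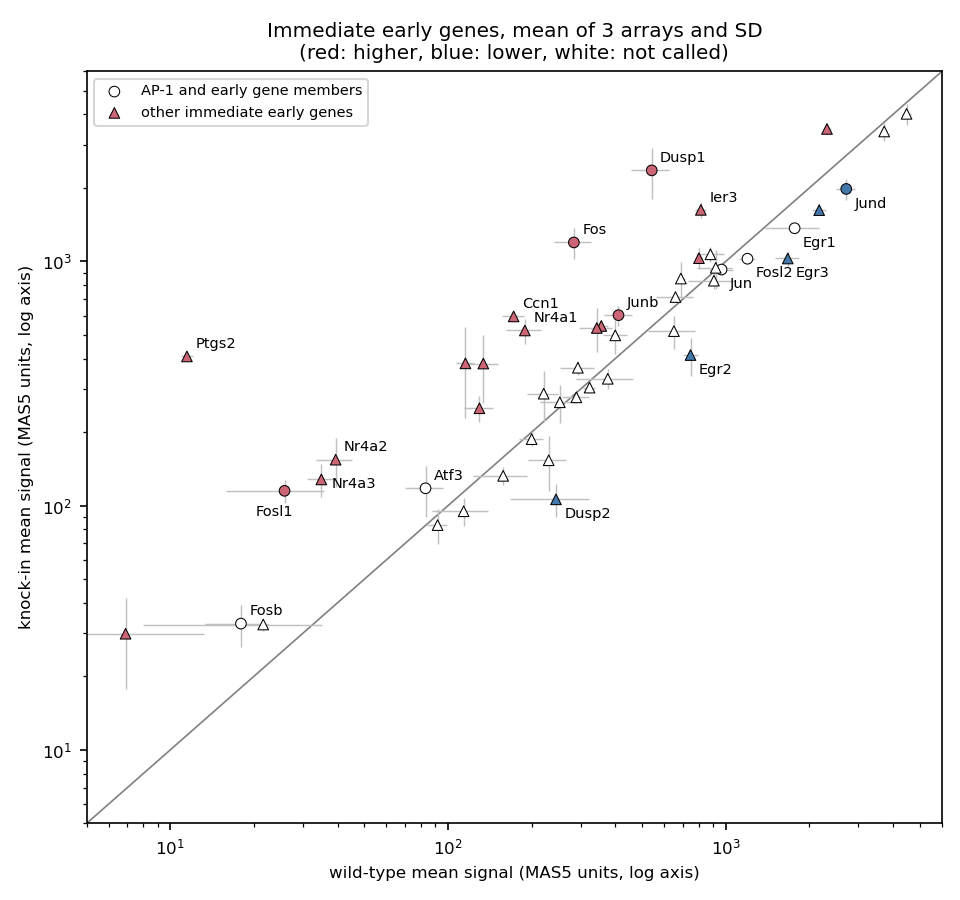
Mean signal in wild-type (x) against knock-in (y) for the 10 members (circles, brightest probe set) and 39 other immediate early genes (triangles), on log axes in MAS5 units with SDs of 3 arrays. The line marks equal signal: Fos, Dusp1, Fosl1, Ptgs2 and the NR4A genes lie above it, and Jund, Egr2, Egr3 and Dusp2 below it.

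Of 26 other basic leucine zipper genes, 7 rose, 2 fell and 17 did not pass, with a median difference of 0.15. Over all named genes 8.45% rose and 9.0% fell. With either filter on dim probe sets 4 fell. Jdp2, a repressor that pairs with Jun proteins, rose from 167 ± 12.3 to 422 ± 38.5 (1.26 ± 0.10, limma adjusted p = 2.63e-04). Cebpd, an acute-phase C/EBP factor, rose from 527 ± 106 to 1220.3 ± 43.7 (1.21 ± 0.14), and Nfe2l2, the antioxidant regulator NRF2, from 585 ± 58.2 to 948 ± 53.8 (0.68 ± 0.098). Bach2, a repressor related to the Maf partners, fell from 157 ± 13.9 to 81.3 ± 7.91 (-0.83 ± 0.12).

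Upstream, genes of the MAP kinase cascade and partners of SRF showed no shared direction. Srf itself, counted among the other immediate early genes, did not pass (-0.086 ± 0.11). Of 28 measured genes, 5 rose, 4 fell and 19 did not pass, with a median difference of -0.11, beside 17.5% called in either direction over all named genes. Of the 28, 2 fell on leaving out replicate 1 or replicate 3 of either group. Elk3, a ternary complex factor that binds beside SRF, rose from 137 ± 4.85 to 406 ± 12.8 (1.46 ± 0.089, limma adjusted p = 5.71e-05). Map2k1, the kinase MEK1, rose by 0.56 ± 0.088. Map3k1, an activator of the JNK pathway, and the growth factor receptor Egfr had differences of -0.87 ± 0.12 and -0.68 ± 0.10 (limma adjusted p = 0.00319 and 0.00446).

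Genes known as AP-1 targets in skin had the widest range of the 4 lists, and many also respond to other factors or are made by infiltrating leukocytes. Of 31 measured, 22 rose, 2 fell and 7 did not pass, with a median difference of 1.29, beside 8.45% higher and 9.0% lower over all named genes. The fallen genes, named after their values were seen, were Ccnd1, the cell cycle activator cyclin D1 (-1.09 ± 0.16), and Ivl, the cornified envelope protein involucrin (-0.54 ± 0.13, limma adjusted p = 0.0262). The call on Ivl was lost on leaving out wild-type replicate 1 (0.0688), wild-type replicate 3 (0.103), knock-in replicate 2 (0.0757) or knock-in replicate 3 (0.0957). The 16 alternatives gave adjusted p values of 0.0118 to 0.103. Among those that rose were Plaur, the urokinase receptor (2.79 ± 0.16), Cxcl1, a neutrophil chemokine (3.97 ± 0.18), and Krt16, a keratin of wounded epidermis (3.64 ± 0.21). Il1b (4.17 ± 0.11), S100a8 (4.26 ± 0.15) and S100a9 (5.72 ± 0.19), which neutrophils also express, rose together with the neutrophil markers above. Limma adjusted p for these 6 lay between 7.83e-07 and 5.15e-05.

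**Figure D4:**
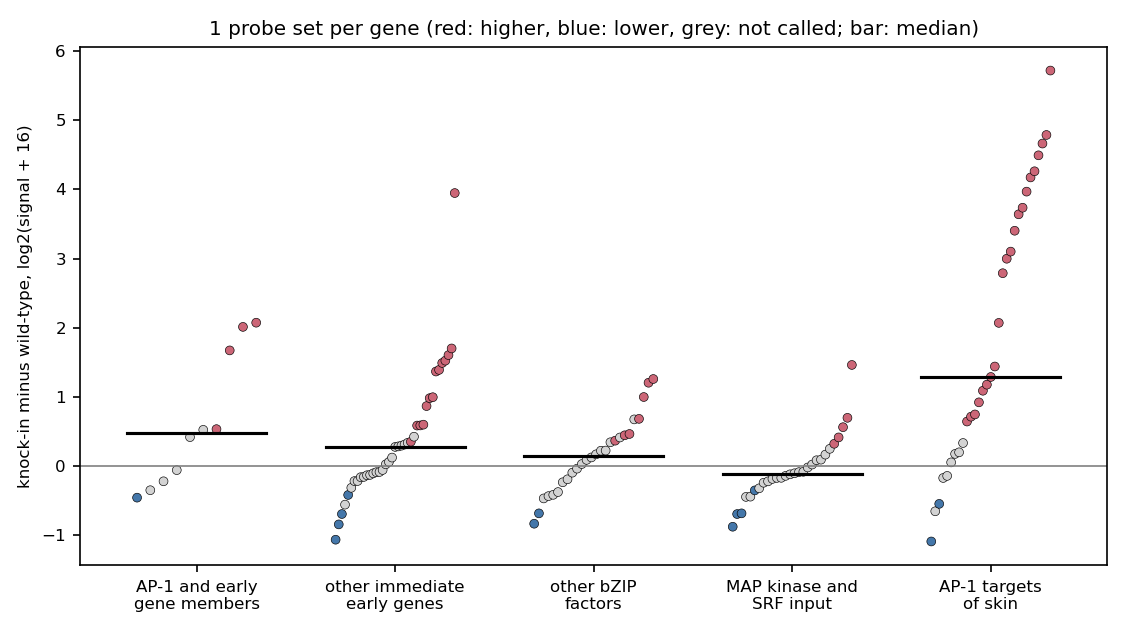
Difference between knock-in and wild-type, log2(signal + 16), of the 10 members and of 4 lists, with 1 probe set per gene sorted by value (red: higher, blue: lower, grey: not called) and bars at the medians. Medians are 0.47 for the members, 0.28 for other early genes and 0.15 for other basic leucine zipper genes. They are -0.11 for MAP kinase genes and SRF partners and 1.29 for AP-1 targets.

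The probe sets most like 4 of the members were found by the root mean square difference between centred log2 profiles over the 6 arrays, among 19742 probe sets of other genes with a mean above the median. Closest to Fos were Smim3 (0.109), a small membrane protein, and 2 probe sets of Krt6a (0.115 and 0.164), a keratin of wounded epidermis. Closest to Fosl1 (1417487_at) were Hhipl1 (0.176), Cap1 (0.183), an actin regulator, and Krt6a 1422783_a_at (0.184), which was also close to Fos. Closest to Junb were Lrrc8c (0.0415), Adcy3 (0.0587), an adenylyl cyclase, and a second Nr4a2 probe set (0.0598). Closest to Atf3 were single probe sets of Popdc3 (0.0501), Stk38 (0.0671) and Ipmk (0.0674), with differences of 0.36, 0.36 and 0.34 that did not pass. For all 4 members the match was made on these same 6 arrays, so similar differences between the groups follow from the choice.

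Scaling matters for the smaller differences. Centring each array on its median moved the median difference of all probe sets from -0.045 to 0.086, and the calls over all probe sets from 2705 higher and 3519 lower to 4103 higher and 2097 lower. Fos, Fosl1, Junb and Dusp1 kept their direction and call under median centring and quantile normalization. Under median centring Fosb also passed (0.66, limma adjusted p = 0.0475, in the range given above), and Jund did not.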

How the data were processed

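Skin RNA of 3 wild-type and 3 knock-in samples was read on 1 array each. The deposited values are linear signal intensity values per probe set, made by the authors with MAS5 per the submitters' processing notes, with version and settings not given in the sources used here. The 2% trimmed mean was 150 on every array, so no further normalization was applied, and detection calls were not used here. Of 45101 probe sets, 64 controls were left out. In the platform annotation 34945 had 1 symbol, 932 several and 9160 none, and 34741 matched RefSeq by gene ID.

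The two-sided test was lmFit with trended eBayes (limma 3.58.1, R 4.3.3) on log2 values of signal plus 16, with Benjamini-Hochberg adjustment over all 45037 probe sets at 0.05. The median standard error was 0.17, and precision is limited by having 3 arrays per group. The offset understates changes of dim probe sets. In lists, the probe set with the highest mean stood for a gene. The procedure was tested on simulated data. Members and lists were chosen with earlier results of these data known. Named are all members, the 6 or 4 list genes with the smallest p, the 3 most alike probe sets, and a few genes named as chosen later. The 16 alternatives covered offset, normalization, filters, variance prior, array weights, 1 probe set per gene, a replicate block and each array left out.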

Additional observations from a re-analysis of the deposited data

How the results depend on the processing

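Over the 14 member probe sets and 16 alternatives, 195 values kept direction and side of the threshold, 9 lost the call, 2 gained it and 6 changed sign. The sign changes were Fosl2 1422931_at with quantile normalization and with median centring (0.087 and 0.094; -0.086 to 0.020 with an array left out) and Jun 1417409_at with median centring (0.076; -0.11 to 0.022 with an array left out). With an array left out, 4 to 5 member probe sets were higher and 0 to 2 lower. With median centring, without the variance trend and with the replicate block, 0 were lower. Over all probe sets, 4103 were higher and 2097 lower with median centring, 1663 and 1791 with 1 probe set per gene, and 1561 to 2303 and 1608 to 2836 with an array left out. The bZIP list had 4 lower with either filter on dim probe sets. The MAP kinase list had 2 to 4 lower with an array left out. The AP-1 target list had 1 lower with median centring or without the variance trend, and 1 to 2 with an array left out.

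The labels number replicates 1 to 3 in both groups, but same-numbered arrays did not deviate together (correlations of -0.24, -0.35 and -0.049, and 0 of 3 wild-type arrays correlated best with their own number). With the replicate number as a block, 1612 probe sets were higher and 1794 lower, the MAP kinase list had 3 higher and the AP-1 target list 1 lower, and the calls on Junb (adjusted p 0.0602, limma), Jund 1449117_at (0.0899), Ivl (0.0560), Adcy3 (0.0714), Lrrc8c (0.111) and Nr4a2 1447863_s_at (0.0852) were lost. Precision is limited for Fosb, for the dim probe sets of Jund and Fosl2 and, in wild-type, for both probe sets of Fosl1, whose signals there lie near or below the array medians.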

Other observations

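Other regulators among the early genes, named after their values were seen, also split. Klf2, a zinc finger factor of endothelial cells and lymphocytes, rose from 134 ± 17.1 to 382 ± 118 (SD, n = 3; 1.37 ± 0.21, limma adjusted p = 0.00420), and Klf10, a TGF-beta response gene, from 356 ± 20.7 to 544 ± 28.8 (0.59 ± 0.088, limma adjusted p = 0.00392). Of the 5 endothelial markers 3 were called higher on the same arrays, and of the 5 T cell markers 2 were called lower. The part of either cell type was not tested. Dusp2, a phosphatase of activated lymphocytes and a relative of Dusp1, fell from 245 ± 77.8 to 106 ± 16.5 (-1.06 ± 0.21, limma adjusted p = 0.0129). Leaving out knock-in replicate 1 gave an adjusted p of 0.0528 (limma). The 16 alternatives gave 0.00488 to 0.0528. The summed signal of the T cell markers was lower on the same arrays (2 of 5 called), and their part was not tested.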
